A study of Homo sapiens with 6 samples.

Results

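A set of 10 genes that modify or crosslink collagen were examined in MCF10A cells grown with and without growth factors. They were taken by name from the table of normalized counts, in which all 10 of them are listed among 19198 genes, and all 10 had enough signal to be tested beside 16988 genes in all. They comprise 2 alpha subunits of collagen prolyl 4-hydroxylase (P4HA1, P4HA2), 3 lysyl hydroxylases (PLOD1, PLOD2, PLOD3), the collagen chaperone HSP47 (SERPINH1) and 4 lysyl oxidases (LOX, LOXL1, LOXL2, LOXL4). They were listed by function and not by a threshold on their values, with earlier results of these data known.

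MCF10A is an established human mammary epithelial line. RNA-Seq was available for 6 samples in 2 conditions, numbered as replicates 1, 2 and 3 in each. All 6 were grown in DMEM:F12 with 5% horse serum, glutamine and Pen/Strep. The 3 control samples also received 10 µg/ml insulin, 20 ng/ml EGF, 100 ng/ml cholera toxin and 0.5 µg/ml hydrocortisone, and the 3 depleted samples received none of these 4 additives. The comparison asked which RNAs change when the growth supplements of these cells are withdrawn. Serum stayed in both media, and the day of RNA collection is not given for these samples. Nothing states that the replicates were separate cultures, so p-values measure the spread between these samples, which may be technical.

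Collagen chains are modified in the endoplasmic reticulum while they fold. Prolyl 4-hydroxylases make the hydroxyproline that keeps the triple helix stable, lysyl hydroxylases make the hydroxylysine that carries sugars and shapes crosslinks, and HSP47 binds the folded helix on its way to the Golgi. After secretion, lysyl oxidases oxidize lysines of collagen and elastin, and the products join into covalent crosslinks that stiffen the matrix. Mammary epithelial cells make basement membrane collagen, whereas fibrillar collagen in the gland comes mostly from stromal fibroblasts.

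Values are reads per gene divided by the size factor of each sample, and are called normalized counts. Between 7472418 and 28672630 reads fell on genes per sample, and 3 reads, taken as the floor, correspond to 1.76 to 6.71 normalized counts, which covers counting error only. Every member had at least 36 reads in every sample. Fold changes come from limma on log2(normalized count + 1), depleted minus control, and a gene was called when its adjusted p was under 0.05 and its change at least 2-fold. By that rule 6.33% of all genes tested were called, 4.36% higher and 1.97% lower without growth factors. In bulk RNA, fewer cells of a type and less RNA per cell cannot be told apart.

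A pair of libraries stood apart from others of their group. Without control replicate 3 the fit called 2474 genes in place of 1076, while leaving out any other single sample gave between 453 and 919. Depleted replicate 1 held 562 normalized counts of the basal keratin KRT5 against 10908 and 14996 in the other depleted samples, and 1049 of the basement membrane collagen COL4A1 against 20669.8 and 18862. The labels call the cells luminal ductal, and markers of both mammary lineages were present: KRT5, KRT17 and ITGA6 of the basal list and KRT8 and KRT18 of the luminal list. TP63, a transcription factor of basal cells, fell from 748 ± 752 to 38.5 ± 28.5 (SD, n = 3 each, log2 -4.18, SE 0.88, limma adjusted p = 0.0270), and that call was lost without control replicate 1 (0.0524), control replicate 2 (0.0601) or depleted replicate 3 (0.0664). KRT19, a luminal keratin, fell from 149.9 ± 56.2 to 28.3 ± 2.41 (log2 -2.31, SE 0.44, limma adjusted p = 0.0196), a call lost without control replicate 1 (0.0833), depleted replicate 2 (0.0915) or depleted replicate 3 (0.0878). The other tested genes of both lists were not called, and they moved both ways. Of the basal list KRT17 (log2 2.44, limma adjusted p = 0.0877) and KRT14 (2.69, 0.184) were higher without growth factors. KRT5 (-2.04, 0.377) and ITGA6 (-1.15, 0.121) were lower. Of the luminal list KRT8 (log2 1.10, limma adjusted p = 0.336) and KRT18 (1.17, 0.22) were higher. GATA3 (-0.28, 0.865) and ESR1 (-2.99, 0.0632) were lower, and PGR and ELF5 are not analysed here.

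Of the 10 genes, 1 rose and 1 fell without growth factors, beside 4.36% and 1.97% of all genes tested. LOXL1 rose and PLOD3 fell, and the other 8 did not pass the test. Their median log2 fold change was 0.34, beside -0.03 over all genes tested. Those are also the only members, 1 in each direction, in which every sample of one group lay above every sample of the other, a separation seen in 25.6% of all genes tested.

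**Figure D1:**
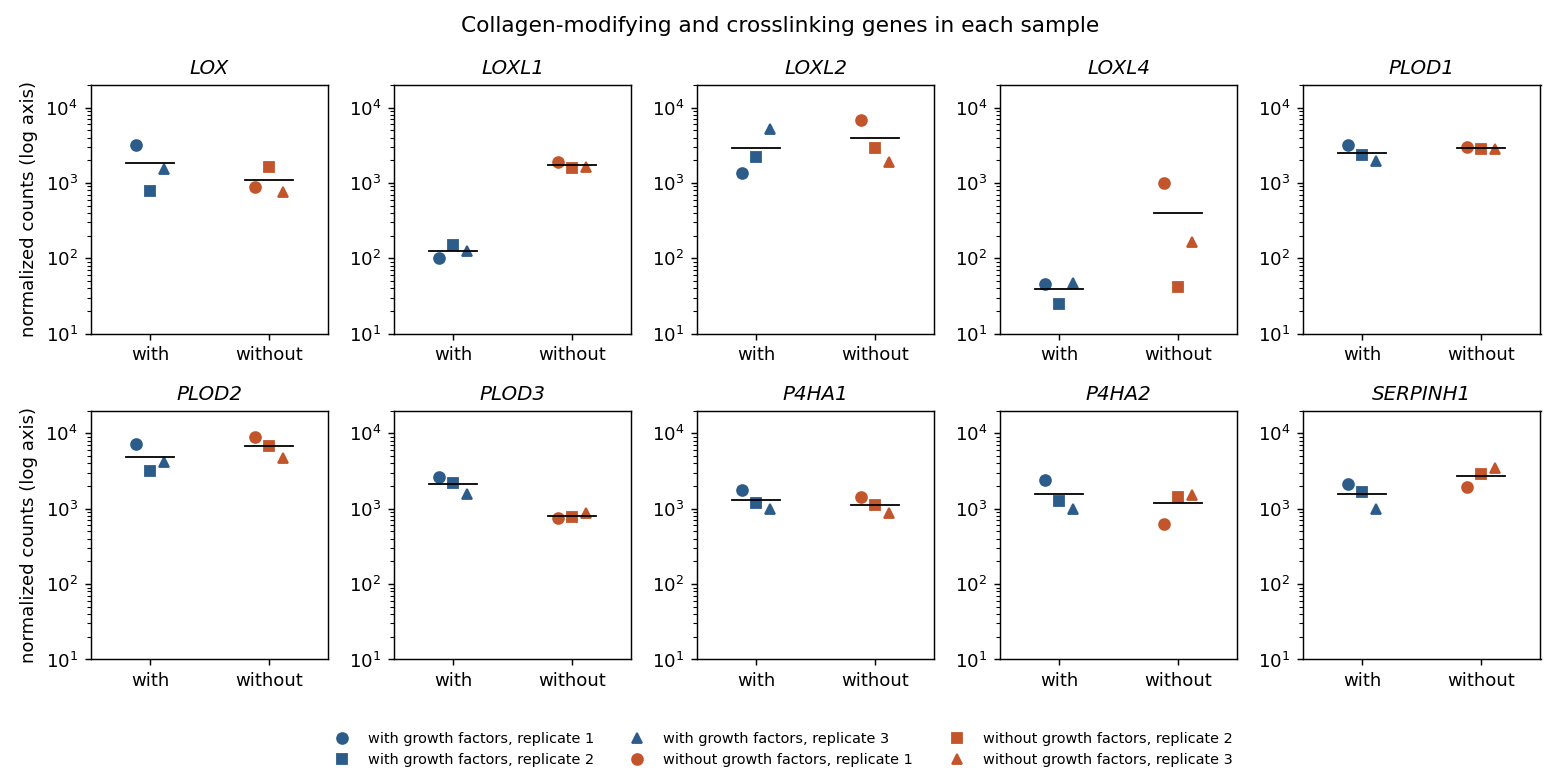
Normalized counts (log axis) of the 10 genes in each of the 6 samples, with growth factors in blue and without in orange, marker shape giving the replicate number and the black bar the group mean. Only LOXL1 (103 to 149 against 1599 to 1925) and PLOD3 (1561 to 2594 against 747 to 876) separate the groups, and LOXL4 is high in 1 depleted sample, at 1006.

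The prolyl 4-hydroxylase alpha subunits carry the catalytic site of that enzyme, and neither passed the test. P4HA1 (chr10:73007217-73096974, hg38) had 1781, 1179 and 992 normalized counts in the controls (replicates 1, 2 and 3, the order kept from here on) and 1412, 1119 and 874 in the depleted samples. The groups overlapped throughout, with a log2 fold change of -0.20 (SE 0.32, limma adjusted p = 0.802) and a 95% interval of the fold from 0.522 to 1.46. P4HA2 (chr5:132190147-132295315) had 2421, 1253 and 985 in the controls and 635, 1427 and 1496 in the depleted samples. The lowest value was that of depleted replicate 1, while the other depleted samples lay inside the control range. Its log2 fold change was -0.38 (SE 0.45, limma adjusted p = 0.714), with an interval of the fold from 0.376 to 1.57. Without depleted replicate 1 the log2 fold change of P4HA2 was 0.021, and without control replicate 1 that of P4HA1 was 0.043.

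Divided by the length of each gene's exons, P4HA1 made up 74.0% ± 3.1 (SD, n = 3) of the summed alpha subunit level with growth factors and 74.8% ± 11.4 without. P4HA2 took nearly all of the rest, and the alternative subunit P4HA3, which is no member, stood at 0.368% ± 0.122 and 0.529% ± 0.167. P4HA1 was thus the leading alpha subunit RNA in each of the 6 samples by this length, at 65.4% to 87.5%. With the longest transcript as length its mean share was 58.4% and 60.3%, and in depleted replicate 3 it was 48.1%, below P4HA2 at 51.5%.

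Among the lysyl hydroxylases PLOD3 was the member that fell. PLOD3 (chr7:101205977-101218420), which codes for LH3, the lysyl hydroxylase that also transfers the sugars of hydroxylysine, had 2594, 2171 and 1561 normalized counts in the controls and 747, 766 and 876 in the depleted samples. Every depleted sample lay below every control, and the means were 2109 ± 519 and 796 ± 70.0 (SD, n = 3 each). The fitted level was 2.60-fold lower, a log2 fold change of -1.38 (SE 0.28, 95% interval -2.03 to -0.73, limma adjusted p = 0.0255). The direction held whichever sample was left out, with log2 values from -1.58 to -1.21. The call held only without control replicate 3 (adjusted p = 0.00766). It was lost without control replicate 1 (0.0944), control replicate 2 (0.0800), depleted replicate 1 (0.0699), depleted replicate 2 (0.116) or depleted replicate 3 (0.0970), and also by limma without the trend (0.0598). edgeR and DESeq2 on the recovered reads both called PLOD3 lower (adjusted p = 0.0297 and 0.000511), at backgrounds of 5.72% and 12.4% of all genes called.

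PLOD1 and PLOD2 did not pass the test. PLOD1 (chr1:11934205-11975538), for LH1, which hydroxylates lysines of the helical part of collagen, had 3147, 2325 and 1968 normalized counts in the controls and 3015, 2855 and 2799 in the depleted samples. The depleted samples lay close together, inside the control range (log2 fold change 0.25, SE 0.28, limma adjusted p = 0.700). PLOD2 (chr3:146035139-146163725), for LH2, which acts on the telopeptides at the ends of collagen chains, had 7318, 3192 and 4104 in the controls and 9017, 6814 and 4662 in the depleted samples. PLOD2 had a log2 fold change of 0.53 (SE 0.41, limma adjusted p = 0.547), with an interval of the fold from 0.755 to 2.75.

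Per exon length, PLOD3 made up 32.0% ± 4.2 (SD, n = 3) of the 3 lysyl hydroxylase RNAs with growth factors and 12.4% ± 2.8 without. PLOD2 went from 28.0% ± 6.0 to 40.1% ± 7.6, and PLOD1 from 40.0% ± 2.0 to 47.5% ± 4.8, while the sum of the 3 levels was 1174 ± 333 and 1154 ± 159 normalized counts per kb. The log2 ratio of PLOD2 to PLOD3 within a sample was 1.50, 0.56 and 1.39 with growth factors and 3.59, 3.15 and 2.41 without. All depleted samples exceeded all controls, by 1.90 on average (exact permutation p = 0.1, the smallest that 3 against 3 allow, and 0.3 after adjustment over 6 ratios). The ratio of PLOD2 to PLOD1 differed by 0.28 (exact permutation p = 0.4, adjusted 0.6) with overlapping groups.

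The bases before the PLOD3 start are shown because PLOD3 was the member that fell, and those before LOX because they hold a motif that was searched. Promoter windows of 250 bases before each RefSeq start (GRCh38.p14, 5′ to 3′ of the gene) were found for 9 of the 10 members, 12 windows in all, and LOXL2 had none. The PLOD3 window is chr7:101217582-101217831 on the minus strand, inside the span of a longer annotated transcript, and its GC content is 69.2%. Of the LOX window at chr5:122078260-122078509 only the part before the first annotated exon is printed, chr5:122078414-122078509 on the minus strand. Capitals mark ACGTG, the core bound by hypoxia-inducible factors.
PLOD3: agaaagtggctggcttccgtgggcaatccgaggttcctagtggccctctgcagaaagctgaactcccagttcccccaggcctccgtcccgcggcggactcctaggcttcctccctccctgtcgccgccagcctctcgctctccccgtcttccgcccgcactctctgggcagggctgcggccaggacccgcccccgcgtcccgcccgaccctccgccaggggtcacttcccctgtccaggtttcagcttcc
LOX: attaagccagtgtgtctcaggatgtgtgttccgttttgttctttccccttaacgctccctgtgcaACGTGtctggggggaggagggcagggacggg

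The RUNX core TGTGGT, searched on both strands, was in the window of 0 of the 9 members and in 11% of all 35116 windows of the table. ACGTG or GCGTG, on either strand, was in those of 5 of the 9 members (LOX, PLOD1, PLOD2, P4HA1 and SERPINH1) and in 7 of their 12 windows, beside 43.2% of all windows. LOX had several windows. Those at chr5:122077224-122077473 and chr5:122077175-122077424 overlap, so motifs in the shared bases count in both. The whole LOX window that is printed in part holds ACGTG 4 times, and the windows of LOXL1, LOXL4, PLOD3 and P4HA2 hold neither form. A match of letters is a description of the window and no evidence of binding.

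SERPINH1 (chr11:75562056-75572783), the gene of HSP47, had 2095, 1676 and 983 normalized counts in the controls and 1915, 2858 and 3470.2 in the depleted samples. The means were 1585 ± 562 and 2748 ± 784, and depleted replicate 1 lay inside the control range. The log2 fold change was 0.82 (SE 0.37, limma adjusted p = 0.267), and the 95% interval of the fold ran from 0.981 to 3.17. It stayed positive, between 0.51 and 1.06, whichever sample was left out.

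LOXL1 was the member with the largest change. LOXL1 (chr15:73925989-73952137), a lysyl oxidase known for elastic fibre assembly, had 103, 149 and 127 normalized counts in the controls and 1925, 1599 and 1612 in the depleted samples. Means were 126 ± 23.3 and 1712 ± 184 (SD, n = 3 each), and the gap between the groups exceeded the range within either of them. LOXL1 rose 13.6-fold (95% interval 8.62 to 21.3), a log2 fold change of 3.76 (SE 0.29, limma adjusted p = 0.000469). It was called under all 18 alternative settings, with log2 values from 3.62 to 3.89, the 6 that leave out 1 sample included (adjusted p from 0.00129 to 0.00586). The antisense gene LOXL1-AS1 shares 335 exon bases with LOXL1. It had 79.0, 104 and 120.0 normalized counts in the controls and 362, 133 and 181 in the depleted samples (log2 fold change 1.04, SE 0.46, limma adjusted p = 0.249), well under LOXL1 in each depleted sample. Whether counting used the strand of the stranded libraries is not given in the sources used here.

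LOX and LOXL2 varied widely within each group. LOX (chr5:122063195-122078413), the founding member of the family, had 3241, 793 and 1516 normalized counts in the controls and 878, 1639.8 and 754 in the depleted samples. The fitted LOX difference was -0.61 on the log2 scale (SE 0.52, limma adjusted p = 0.592), and the interval of the fold, 0.285 to 1.50, leaves room for a change in either direction. It was -0.093 without control replicate 1 and -1.11 without control replicate 2. LOXL2 (chr8:23296897-23425328), which crosslinks basement membrane collagen, had 1355, 2237 and 5229 in the controls and 6856, 2951 and 1925 in the depleted samples. The highest value of each group was over 3 times its lowest. The log2 fold change was 0.43 (SE 0.59, limma adjusted p = 0.755), and it was -0.013 without control replicate 1 and -0.076 without depleted replicate 1.

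LOXL4 (chr10:98247690-98268194), a less studied lysyl oxidase, had 45.1, 24.6 and 47.2 normalized counts in the controls and 1006, 42.0 and 163 in the depleted samples. Depleted replicate 1 stood far above the rest, and depleted replicate 2 lay inside the control range. The log2 fold change of 2.32 (SE 1.0, 95% interval 0.04 to 4.61) did not pass the test (limma adjusted p = 0.242). It was 1.13 without depleted replicate 1 and 3.40 without depleted replicate 2. DESeq2 called LOXL4 higher (log2 3.38, adjusted p = 0.00197), whereas edgeR did not (log2 3.41, adjusted p = 0.101), and the adjusted p over the 18 settings ran up to 0.485.

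With LOXL3 included, the lysyl oxidase RNAs had another make-up in each condition. Per exon length, LOXL1 made up 4.50% ± 2.38 (SD, n = 3) of the summed level of the 5 genes with growth factors and 35.6% ± 10.8 without. LOX made up 38.7% ± 25.8 and 15.0% ± 8.1, and LOXL2 55.3% ± 25 and 42.5% ± 10. The leading RNA was LOX in control replicate 1, LOXL2 in control replicates 2 and 3 and in depleted replicates 1 and 2, and LOXL1 in depleted replicate 3, at 46.6%. The summed level was 847, 567 and 1194 normalized counts per kb with growth factors and 2115, 1247 and 951 without, so the sums of both groups overlapped.

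Ratios within a sample do not depend on how the samples were scaled. The log2 ratio of LOXL1 to LOX was -4.97, -2.40 and -3.57 with growth factors and 1.13, -0.04 and 1.10 without. It was higher in each depleted sample than in any control, by 4.38 on average (exact permutation p = 0.1, the smallest possible, adjusted 0.3). The ratios of LOXL2 to LOX (difference 1.05, exact permutation p = 0.6) and of LOXL4 to LOX (2.94, exact permutation p = 0.3) overlapped between groups, as did that of P4HA2 to P4HA1 (-0.18, exact permutation p = 0.9). Without control replicate 1 the LOXL2 to LOX difference was 0.081 and without depleted replicate 1 it was 0.43, while that of LOXL4 to LOX ranged from 1.63 without depleted replicate 1 to 4.35 without depleted replicate 2.

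**Figure D2:**
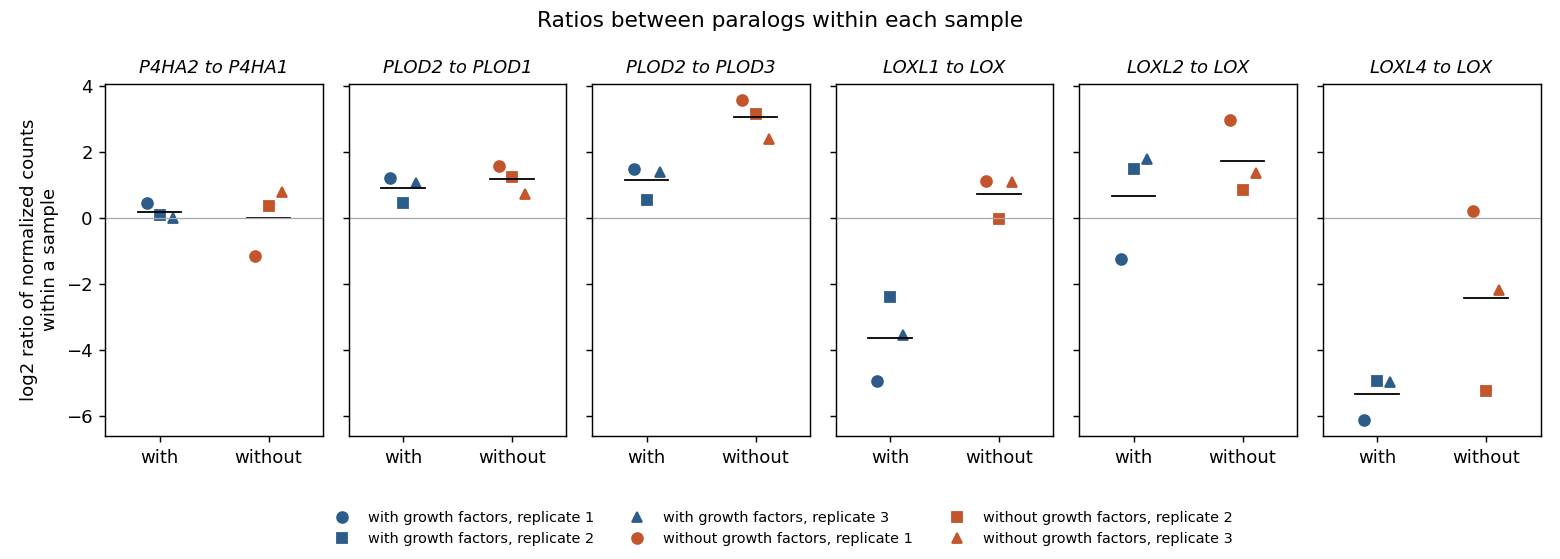
Log2 ratio of the normalized counts of related genes within each sample, for 6 pairs, with growth factors in blue and without in orange, marker shape giving the replicate number and the bar the group mean. The groups separate for PLOD2 to PLOD3 and for LOXL1 to LOX, and they overlap for the other 4 pairs.

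Levels per kb of exon placed the members in an order. With growth factors LOXL2 (491 ± 339 normalized counts per kb, SD, n = 3), PLOD1 (466 ± 114), P4HA1 (426 ± 133), PLOD3 (372 ± 92), PLOD2 (336 ± 149), LOX (331 ± 225) and SERPINH1 (252 ± 89) followed each other by less than their SD. P4HA2 (153 ± 75) came next, lower than SERPINH1 by more than either SD, and LOXL1 (34.7 ± 6.4) and LOXL4 (10.8 ± 3.5) were lowest. Without growth factors the order ran LOXL2 (653 ± 435), PLOD1 (543 ± 21), LOXL1 (471 ± 51), PLOD2 (471 ± 150), SERPINH1 (437 ± 125), P4HA1 (367 ± 87), LOX (195 ± 86), PLOD3 (140 ± 12), P4HA2 (117 ± 47) and LOXL4 (112 ± 146). LOXL1 moved from the second lowest place to one level with PLOD2. Neighbours in this order differed by less than the larger of their SDs, except PLOD1 and LOXL1, and P4HA1 and LOX. The order of the upper places changed with the longest transcript as length, which put PLOD1 first with growth factors and PLOD2 first without.

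Other genes of collagen maturation were read from a list of 34, of which 31 are in the table and 29 were tested. Of these 29, 6 rose and 1 fell, 24.1% called beside 6.33% of all genes tested, and their median log2 fold change was 0.50. The prolyl 3-hydroxylase group held 3 of those that rose. P3H1 had 351, 233 and 346 normalized counts in the controls and 992, 737 and 814 in the depleted samples (log2 fold change 1.46, SE 0.30, limma adjusted p = 0.0250). P3H4, a partner of lysyl hydroxylase 1, went from 88.0 ± 22.1 to 322 ± 92.0 (1.86, SE 0.39, limma adjusted p = 0.0266). P3H3 had 2 reads in each control sample and 163, 49.8 and 62.6 normalized counts in the depleted ones (limma adjusted p = 0.00451), and its fitted log2 value, 4.84, moved between 2.94 and 5.12 with the pseudocount.

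The remaining genes that rose act outside prolyl hydroxylation. Transglutaminase 2, TGM2, which makes another kind of protein crosslink, had 207, 354 and 81.6 normalized counts in the controls and 7039, 7553 and 10824 in the depleted samples (log2 fold change 5.51, SE 0.50, limma adjusted p = 0.000900). SPARC, a collagen-binding matrix protein, had 7.52, 1.17 and 8.85 in the controls and 265, 167 and 60.4 in the depleted samples (4.62, SE 0.80, limma adjusted p = 0.0120). PEPD, the prolidase that splits proline dipeptides, went from 254 ± 57.6 to 689 ± 153 (1.44, SE 0.32, limma adjusted p = 0.0362). PCOLCE2, an enhancer of procollagen C-propeptide cleavage, fell from 153 ± 72.4 to 29.5 ± 4.33 (-2.21, SE 0.53, limma adjusted p = 0.0451).

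These calls rested on the samples to different degrees. TGM2 and P3H3 stayed called whichever sample was left out, and SPARC in 5 of 6 cases, being lost without depleted replicate 2 (adjusted p = 0.0671). P3H1, P3H4 and PCOLCE2 stayed called only without control replicate 3 (adjusted p = 0.0162, 0.0187 and 0.00614) and missed the threshold when any other sample was left out, up to adjusted p of 0.113, 0.115 and 0.172. PEPD stayed called without control replicate 3 or depleted replicate 1 and reached 0.185 otherwise.

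Several abundant partners of the members did not pass the test. P4HB, the beta subunit that every prolyl 4-hydroxylase needs, had 12254, 8431 and 6419 normalized counts in the controls and 8984, 8210.2 and 8731 in the depleted samples (log2 fold change -0.01, SE 0.35, limma adjusted p = 0.991). The peptidyl-prolyl isomerase PPIB had 4032 ± 2013 and 4069.8 ± 273 (0.17, SE 0.44, limma adjusted p = 0.879). The third of the prolyl 3-hydroxylases, P3H2, which acts on basement membrane collagen, went from 4377 ± 1957 to 1780.1 ± 845 with separate groups (-1.34, SE 0.50, limma adjusted p = 0.172). BMP1, which cuts the C-propeptide and activates LOX, had 1172, 1346 and 1438 and then 1594, 2890.2 and 2665 (0.81, SE 0.31, limma adjusted p = 0.182). LOXL3 stayed under 45 normalized counts in every sample, at 9.23 ± 8.17 and 28.9 ± 13.5.

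**Figure D3:**
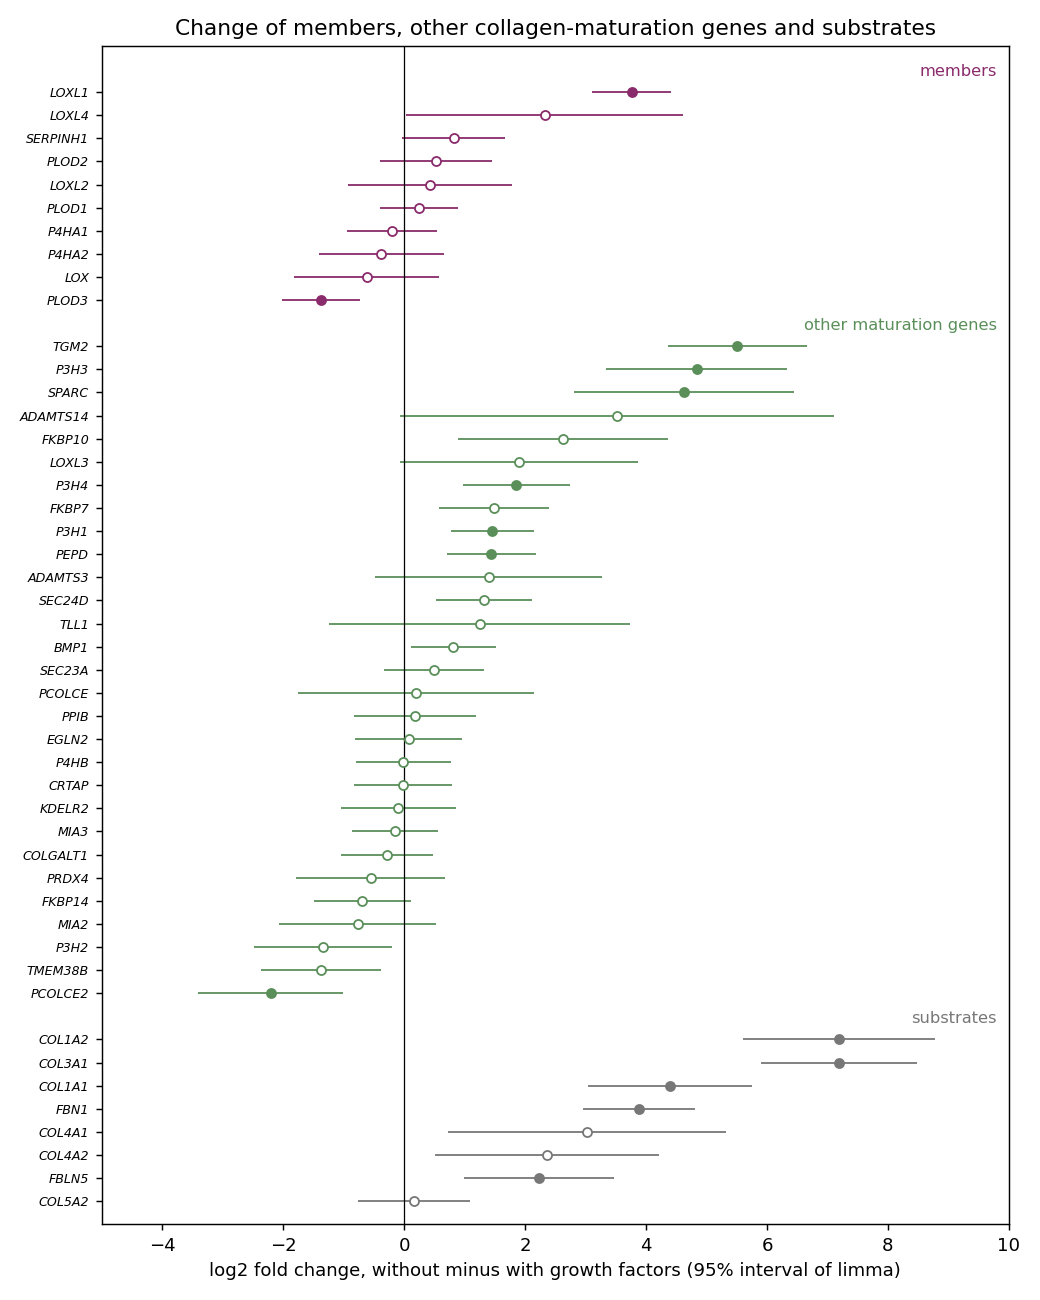
Log2 fold change, without minus with growth factors, of the 10 members, 29 other collagen-maturation genes and 8 substrate genes, with the 95% interval of limma. Filled points were called. Among members LOXL1 (3.76) and PLOD3 (-1.38) are filled, and the substrate genes reach 7.19.

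Substrates of these enzymes were read beside them. Of 12 substrate genes on a list, 8 were tested, of which 5 rose and none fell by limma, with a median log2 fold change of 3.46 beside 0.34 for the members. Over all genes tested 4.36% rose and 1.97% fell. COL1A2 had 138, 35.7 and 19.7 normalized counts in the controls and 13005, 5971 and 4248 in the depleted samples (log2 7.19, SE 0.70, limma adjusted p = 0.00120). COL3A1 had 24.1 ± 17.6 and 3316 ± 1516 (7.19, SE 0.56, limma adjusted p = 0.000509), and COL1A1 had 81.1 ± 47.5 and 1837 ± 1089 (4.40, SE 0.59, limma adjusted p = 0.00435). FBN1, fibrillin of elastic fibres, had 896 ± 349 and 12973 ± 4653 (3.88, SE 0.41, limma adjusted p = 0.00163). FBLN5, a fibulin that works with LOXL1 in elastic fibres, had 10.1 ± 2.14 and 52.4 ± 17.2 (2.23, SE 0.54, limma adjusted p = 0.0477), and that call held only without control replicate 3 (adjusted p = 0.0326, and up to 0.232 otherwise). It was also lost with a pseudocount of 0.5 (0.0506) and with quantile normalization (0.104).

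Per kb of exon, the summed level of COL1A1, COL1A2 and COL3A1 was 0.0304, 0.0247 and 0.0439 times that of P4HA1 and P4HA2 in the control samples. In the depleted samples it was 4.17, 2.57 and 1.8 times as high. The mean ratio for these collagens was 0.0330 ± 0.0099 and 2.85 ± 1.21 (SD, n = 3 each), an 86.2-fold difference with no overlap. The same sum per lysyl hydroxylase went from 0.0159 ± 0.0039 to 1.18 ± 0.436, per SERPINH1 from 0.0794 ± 0.0356 to 3.78 ± 2.96, and per member lysyl oxidase from 0.0223 ± 0.0070 to 0.963 ± 0.126. The sum leaves out the other tested collagens COL5A2, COL4A1 and COL4A2, which were not called by limma in the main fit. Of 18 alternative settings, 4 called COL4A1, 2 called COL4A2 and 0 called COL5A2. Their mean levels per kb were 31.4, 62.5 and 109.9 with growth factors, each above those of COL1A1, COL1A2 and COL3A1. Without growth factors they were 34.3, 922.6 and 854.1. Ratios with them included were not computed, so the differences hold for the chosen collagens only. The ratios given were chosen after the values were seen and were not tested.

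**Figure D4:**
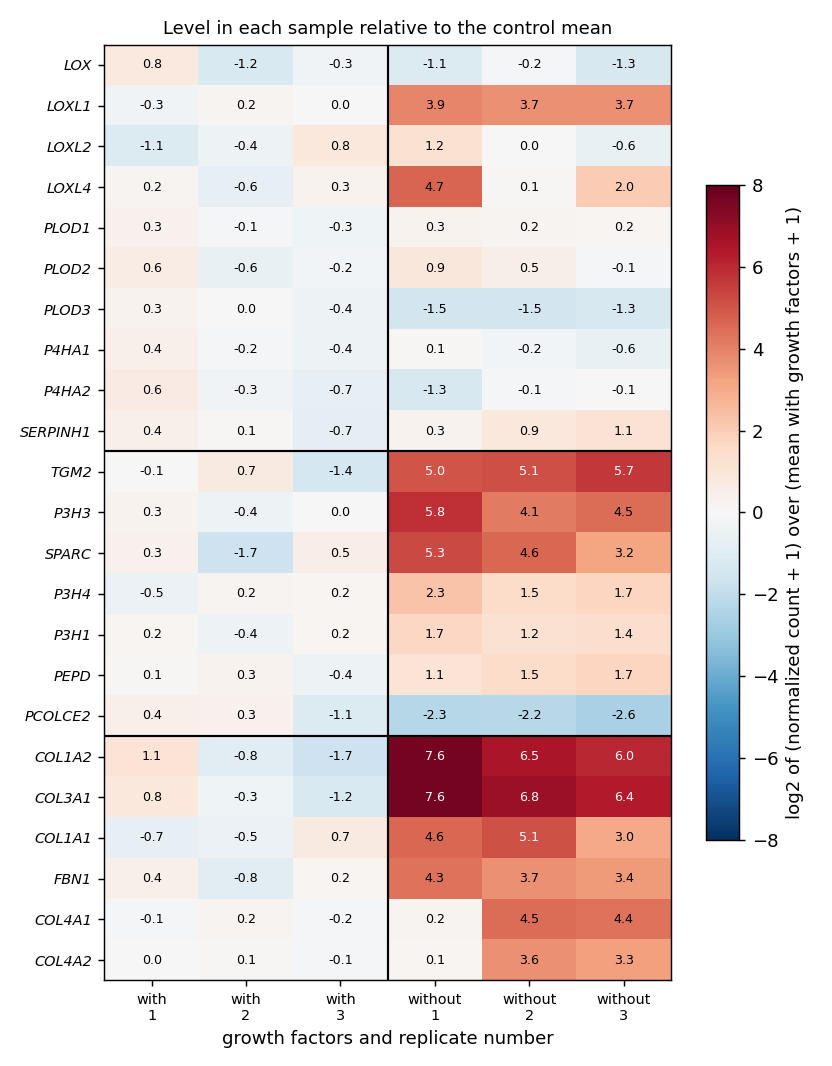
Log2 of (normalized count + 1) over (control mean + 1) in each sample, for the 10 members (top), the 7 other maturation genes that were called (middle) and 6 substrate genes (bottom). LOXL1 is the one member with high values in all 3 depleted samples, and COL4A1 and COL4A2 are high only in depleted replicates 2 and 3.

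Markers of other cell types were read beside these genes, and their part in the results was not tested. All 4 mesenchymal markers (VIM, FN1, CDH2, ZEB1) rose, with summed normalized counts of 3751 to 11196 in the control and 96767 to 180473 in the depleted samples. Of 5 fibroblast markers, of which COL1A1 and COL1A2 are also substrates above, 3 of 4 tested rose. Over all genes tested 4.36% rose. Sums of the 5 fibroblast markers were 201 to 399.8 in the control and 5465 to 19563 in the depleted samples. THY1 of that list was at 0 in control replicates 1 and 2 and at most 6.71 in the depleted samples. The third fibroblast marker that rose, the receptor PDGFRA, had 0.941 ± 0.336 and 49.4 ± 13.7 (limma adjusted p = 0.00396), with 1 read in each control. DCN, the tested fibroblast marker that was not called, had 211, 107 and 125 in the controls. It had 4495, 449 and 481 in the depleted samples, with separate groups (log2 2.80, limma adjusted p = 0.0891). The leukocyte marker PTPRC, too low to be tested, had 1.25, 0 and 1.97 in the controls and 10.1, 13.8 and 11.2 in the depleted samples, and CD3E and CD68 are not analysed here. Of the endothelial markers VWF, also too low to be tested, had 1.92 ± 1.77 and 9.10 ± 5.62. CDH5 went from 5.93 ± 2.49 to 81.6 ± 49.3 (limma adjusted p = 0.0282), a call kept in 2 of 6 fits that leave out a sample and lost at up to 0.146. PECAM1, the most abundant of that list, was not called, at 446 ± 485 and 616 ± 836 with overlapping groups (log2 0.09, limma adjusted p = 0.981).

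Depleted replicate 1, the library with little KRT5, was the highest of the depleted samples for 6 of the 10 members and the lowest for 3. Control replicate 1 was the highest control for 7 members, and control replicate 3 the lowest for 5. LOXL1 and PLOD3 kept their direction whichever sample was left out, as did LOX, LOXL4, PLOD1, PLOD2 and SERPINH1. The log2 fold change of LOXL4 stayed positive but ranged from 1.13 to 3.40. LOXL2, P4HA1 and P4HA2 changed sign when single samples were left out, as given above.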

How the data were processed

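MCF10A RNA-Seq was analysed in 6 samples, 3 per condition, grouped by the labels. The deposit describes 2 replicates in its design text, while labels and columns hold 3. The authors trimmed reads with cutadapt 1.6, which were single-end, stranded and 100 bases long, used TopHat2 for mapping to hg38 and HTSeq 0.6 with Gencode v22 for counting, and divided counts by DESeq2 1.8.1 size factors in R 3.2.0. The deposited signal is therefore a normalized count, not divided by gene length. Whole reads were recovered from 100% of the values (tolerance 0.01 reads). The authors left out genes with few reads by an undescribed step.

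Gencode v44 (hg38) named 18913 of 19198 genes and gave lengths and coordinates. Genes averaging 10 or more were fitted with limma 3.58.1 (R 4.3.3, trend) on log2(normalized count + 1), which understates changes of low genes, with Benjamini-Hochberg adjustment over all 16988. Ratios were compared by exact two-sided permutation over samples. Alternatives were pseudocounts of 0.5 and 10, no filter, a mean of at least 50, the same total, quantile normalization, no trend, a replicate block, a length and GC correction with and without it, each sample left out, and edgeR 4.0.16 or DESeq2 1.42.0 on recovered reads. Procedures were tested on simulated data. Members, lists and tests were chosen with earlier results of these data known. Named are all members, the called genes of each list but the mesenchymal one, whose members are given together, and some other maturation genes with high levels. BMP1, LOXL3, COL4A1, COL4A2, COL5A2 and the substrate ratios were chosen after their values were seen. Shared exon bases with SRFBP1 (LOX), ENTPD4 (LOXL2) and ZNHIT1 (PLOD3) were 138, 120 and 102.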

Additional observations from a re-analysis of the deposited data

How the results depend on the processing

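Over 18 alternatives the 10 members gave 180 values, of which 167 kept direction and side of the threshold, 8 lost a call, 1 gained one and 4 changed sign. LOXL1 stayed called in all 18. PLOD3 stayed negative in all 18 and lost its call without the trend (adjusted p = 0.0598), with the block fits below, and when any sample but control replicate 3 was left out (adjusted p from 0.00766 to 0.116 over the 6 fits). The 4 sign changes came from left-out samples. LOXL2 was at -0.013 without control replicate 1 and -0.076 without depleted replicate 1 (range over left-out samples -0.076 to 0.961), P4HA1 at 0.043 without control replicate 1 (-0.379 to 0.043) and P4HA2 at 0.021 without depleted replicate 1 (-0.654 to 0.021). The log2 ratio of P4HA2 to P4HA1 ranged from -0.574 to 0.389, positive without depleted replicate 1. The cause was not tested.

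Leaving out 1 sample gave 1 member higher each time and 0 to 1 lower, 2 to 7 other maturation genes higher and 0 to 3 lower, and 313 to 1372 of all genes higher and 126 to 1102 lower. DESeq2 called 2 members higher, 10 maturation genes higher and 2 lower, and 1287 of all genes higher and 825 lower. No trend called 0 members lower, beside 236 of all genes lower. A minimum mean of 50 gave 0 maturation genes lower, beside 294 of all genes lower.

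Over all genes tested, same-numbered samples of both conditions did not deviate together (correlations -0.07, -0.28 and -0.32). With 3 samples per condition such correlations cannot decide whether a number stands for a shared culture or batch. The labels do not say that it does. With the replicate block 1 member was called higher and 0 lower (PLOD3 adjusted p = 0.0786), with 3 maturation genes higher and 0 lower, and 689 of all genes higher and 278 lower. The length and GC correction with the block called 0 members lower and 0 maturation genes lower (PLOD3 adjusted p = 0.0690), beside 254 of all genes lower. Lengths of the longest transcript changed the shares of P4HA1, P4HA2 and PLOD1 in their families by more than the spread between replicates. The same held for LOXL4 with growth factors. Between 7472418 and 28672630 reads per sample limit LOXL3, P3H3 and other genes near the floor, not the members.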

Other observations

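A list of 12 hypoxia-response genes was read because P4HA1, P4HA2, PLOD2 and LOX are known targets of hypoxia-inducible factors. Of the 12, 0 were called by limma, beside 6.33% of all genes tested. An unadjusted limma p under 0.05 was found for 4 of them, beside 3400 of all 16988 genes tested. The median log2 fold change was 0.33, beside -0.03 over all genes tested. On the recovered reads edgeR called 0 and DESeq2 2 of the 12, both higher, beside 5.72% and 12.4% of all genes called in either direction. VEGFA had 4821 ± 2349 normalized counts in the controls and 4596 ± 1148 in the depleted samples (SD, n = 3 each). SLC2A1, the glucose transporter, had 3809.9 ± 1058 and 6764 ± 625 with separate groups (log2 0.86, SE 0.32, limma adjusted p = 0.168). ADM had 239.8 ± 74.8 and 1092 ± 819 (log2 1.96, SE 0.55, limma adjusted p = 0.0776), and PFKFB3 had 431 ± 155 and 1884 ± 1344 (log2 1.96, SE 0.49, limma adjusted p = 0.0517), both also with separate groups. Groups separated in these 3 of the 12, beside 25.6% of all genes tested, which is near the same share. CA9 had 16.3, 9.96 and 75.7 normalized counts and then 10.1, 4.59 and 2.24, so it was highest in control replicate 3.

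Of 10 chaperones and isomerases of the endoplasmic reticulum, 0 were called by limma, beside 6.33% of all genes tested. An unadjusted limma p under 0.05 was found for 1 of the 10, beside 3400 of all 16988 genes tested. The median log2 fold change was -0.33, beside -0.03 over all genes tested. PDIA4 had 7479, 5864 and 4413 normalized counts in the controls and 2745, 2903 and 3025 in the depleted samples (log2 -1.0, SE 0.30, limma adjusted p = 0.0937). HSPA5 had 4501 ± 1634 and 4642 ± 668. On the recovered reads edgeR called 0 and DESeq2 1 of these 10, which was lower, beside 5.72% and 12.4% of all genes called in either direction.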
